A study of Homo sapiens with 6 samples.

Results

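The thrombospondins and matricellular proteins considered here are 8 genes, THBS1, THBS2, THBS3, SPARC, TNC, POSTN, CCN1 and CCN2, found by symbol among the 20330 Ensembl genes that each table lists. CCN1 and CCN2 were formerly named CYR61 and CTGF. All 8 were found and 7 were tested, since POSTN fell below the filter on low values. The genes were chosen by name with the FPKM values of this same comparison in view, so the differences between groups given for these 8 genes are a description and support nothing by themselves.

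RNA was sequenced from U251, an established human glioblastoma cell line, in 6 libraries. In 3 of them the cells stably overexpressed the long noncoding RNA XLOC013218, and the other 3 were control cells of the same line. The promoter that drives the transgene, what the control cells carry, and whether each group is a clone or a selected pool are not stated by the labels. The overexpressed RNA itself was not analysed here. The series describes the replicates as biological and independent, but no label ties them to separate cultures, so p-values measure the spread between these libraries, which may be technical.

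Values are FPKM, fragments scaled to transcript length and to the mapped total of the library, so levels of different genes can be set side by side per length. The depth in reads is unknown. From the steps between low values, the depth relative to control replicate 2 was estimated at 0.758 to 0.901 in the overexpression libraries and at 0.785 to 1.0 in the control libraries. FPKM summed to between 614027 and 621922 in the overexpression libraries and between 598683 and 620473 in the control libraries. The glioma markers VIM, NES and SOX2 averaged 3581, 79.3 and 102 FPKM in overexpressing cells and 3839.5, 81.5 and 116 FPKM in control cells, while the astrocyte markers S100B, AQP4 and ALDH1L1 averaged under 1 FPKM. SLC1A3, of the same list, averaged 4.17 FPKM in overexpressing cells and 3.26 FPKM in control cells. GFAP, the astrocyte filament protein, was at 21.6 ± 7.91 FPKM in overexpressing cells and 41.6 ± 6.06 FPKM in control cells (SD, n = 3 each; limma adjusted p = 0.107), and the 8 glioma and astrocyte markers summed to between 3706 and 3910.3 FPKM in overexpressing cells and between 3828 and 4251 FPKM in control cells. Platelets are a rich source of thrombospondin-1 protein, and the platelet markers PF4 and GP9 were listed at 0 in all 6 libraries. The 5 platelet markers, which all averaged under 1 FPKM, summed to between 0.74 and 0.94 FPKM in overexpressing cells and between 0.64 and 1.52 FPKM in control cells. Endothelial markers, 4 of 5 listed, summed to between 0.55 and 0.65 FPKM in overexpressing cells and between 0.66 and 0.92 FPKM in control cells. The 5 fibroblast and pericyte markers summed to between 5.19 and 7.24 FPKM in overexpressing cells and between 5.66 and 5.95 FPKM in control cells. The 4 neuron markers summed to between 8.70 and 11.32 FPKM in overexpressing cells and between 9.63 and 10.45 FPKM in control cells. Most of that was SYT1, which averaged 8.45 FPKM in overexpressing cells and 7.76 FPKM in control cells. Of 6 myeloid markers, 4 averaged under 1 FPKM, and their summed level was between 11.8 and 13.3 FPKM in overexpressing cells and between 8.07 and 9.49 FPKM in control cells. CD68, a lysosomal protein that many cell types express, made up most of that sum, at 10.1 ± 0.847 FPKM in overexpressing cells and 7.19 ± 0.4996 FPKM in control cells (SD, n = 3 each), and the part of these markers in the results was not tested.

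Matricellular proteins are secreted into the extracellular matrix, where they act on cell surface receptors, proteases and growth factors rather than as structural fibres. Thrombospondins are large oligomeric glycoproteins, and thrombospondin-1 is known for restraining blood vessel growth through CD36 and CD47 and for activating latent TGF-beta. CCN proteins bind integrins and heparan sulfate, and CCN1 and CCN2 are standard target genes of the coactivators YAP and TAZ, which act through TEAD transcription factors. SPARC, tenascin-C and periostin are all described in the matrix of glioblastoma.

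Promoter windows of 250 bases before the annotated transcription start were available for 7 of the 8 genes, all but CCN1, from RefSeq on the build GRCh38.p14. The letters GGAATG, the core of the TEAD binding motif, were searched on both strands, where the reverse strand reads CATTCC, and are capitalised. The promoters of THBS1, CCN2 and THBS2 are shown because THBS1 differs most between the groups among the 8, CCN2 is the usual reference gene for TEAD, and THBS2 is the close relative of THBS1 whose level was nearly the same in both groups.

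THBS1 (chr15:39580829-39581078, plus strand): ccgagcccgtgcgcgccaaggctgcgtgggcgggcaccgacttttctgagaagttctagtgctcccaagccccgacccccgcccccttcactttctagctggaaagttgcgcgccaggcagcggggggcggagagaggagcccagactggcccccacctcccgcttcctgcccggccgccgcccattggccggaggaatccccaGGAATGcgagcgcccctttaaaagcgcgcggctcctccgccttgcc

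CCN2 (chr6:131951373-131951622, minus strand): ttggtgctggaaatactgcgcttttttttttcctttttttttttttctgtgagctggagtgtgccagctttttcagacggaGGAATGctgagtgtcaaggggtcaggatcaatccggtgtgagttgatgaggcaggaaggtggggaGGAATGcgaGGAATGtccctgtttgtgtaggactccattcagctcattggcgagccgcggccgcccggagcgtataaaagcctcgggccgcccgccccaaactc

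THBS2 (chr6:169253847-169254096, minus strand): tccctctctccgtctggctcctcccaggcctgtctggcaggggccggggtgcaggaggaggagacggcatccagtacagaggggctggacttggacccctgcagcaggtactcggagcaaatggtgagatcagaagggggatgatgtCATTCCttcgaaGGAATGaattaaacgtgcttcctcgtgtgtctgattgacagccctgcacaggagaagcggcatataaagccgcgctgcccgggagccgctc

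The CCN2 window holds 3 copies of these letters, beginning 169, 104 and 95 bases before the start. The THBS2 window holds 2 copies, 1 on each strand, beginning 103 and 91 bases before the start, the THBS1 window 1 copy beginning 46 bases before it, and the SPARC window 1 copy beginning 17 bases before it. The single windows of TNC and POSTN and both windows of THBS3 hold none. Among 35116 RefSeq promoter windows of the same length, 11.9% hold at least 1 copy, 0.94% hold 2 or more and 0.0826% hold 3 or more. The AP-1 letters TGANTCA, searched on both strands, occur in 6.57% of all windows and, among the 8 genes, in that of POSTN. No window of the 8 genes holds a CArG box, the serum response factor motif, which 1.16% of all windows hold on either strand. A match of letters is a description of the window, not a binding site.

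The 8 genes spanned a wide range of levels, and their order was the same in each of the 6 libraries. SPARC, a collagen-binding glycoprotein, came first and stood between the 37th and the 54th most abundant of the 20330 genes in every library. CCN2 followed at ranks 349 to 486 and CCN1 at ranks 491 to 717. THBS1 stood at ranks 675 to 784 in overexpressing cells and at ranks 1020 to 1208 in control cells. TNC lay at ranks 1559 to 2189, THBS2 at ranks 5219 to 5693 and THBS3 at ranks 6226 to 7233. POSTN, at ranks 13245 to 13841, was close to the detection limit. No neighbours in this order had overlapping ranges within a group. Together the 8 genes made up 0.336% ± 0.0111 of the summed FPKM in overexpressing cells and 0.336% ± 0.00974 in control cells (SD, n = 3 each).

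**Figure D1:**
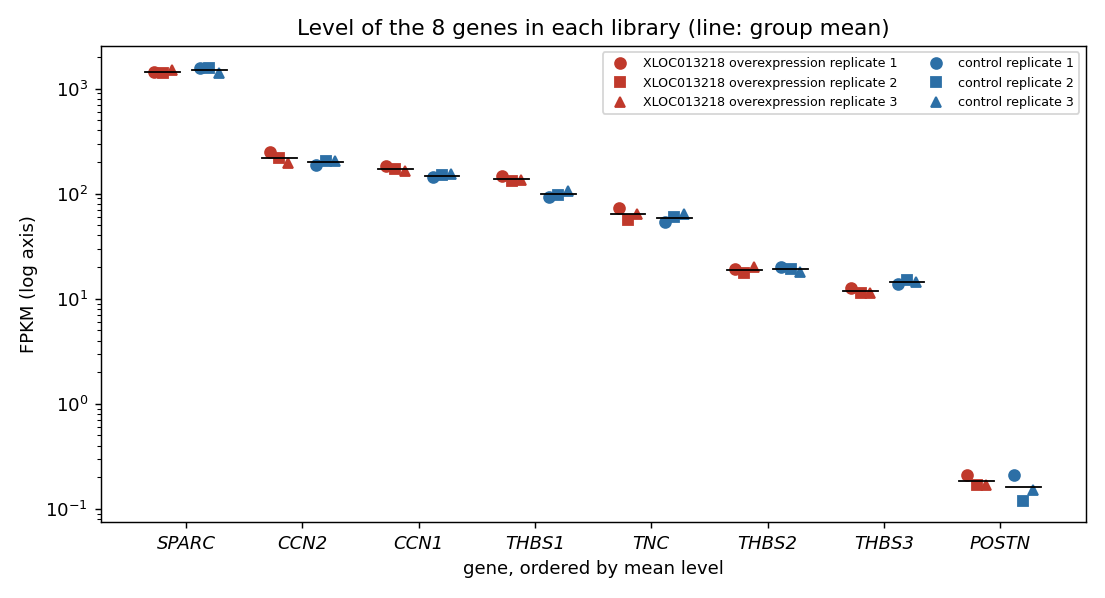
FPKM of the 8 genes on a log axis, with a point for each library and a line at each group mean; XLOC013218-overexpressing cells are left of control cells for every gene. SPARC lies between 1402 and 1583 FPKM, POSTN between 0.12 and 0.21 FPKM, and THBS1 is the gene whose groups stand furthest apart.

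THBS1, the gene of thrombospondin-1 (ENSG00000137801, chromosome 15), was at 148, 131 and 135 FPKM in overexpression replicates 1 to 3, against 92.4, 97.6 and 105 FPKM in control replicates 1 to 3. The groups did not overlap, and the lowest overexpression library stood well above the highest control library. The means were 138 ± 8.91 FPKM in overexpressing cells and 98.3 ± 6.34 FPKM in control cells (SD, n = 3 each), a ratio of 1.40. On the log2(FPKM + 1) scale, which is used for all differences given here, the difference was 0.49 (SE 0.06). In the limma fit over all 11731 tested genes THBS1 had an adjusted p of 0.0242. With 1 library left out the difference stayed between 0.43 and 0.53, but the limma adjusted p passed 0.05 only without overexpression replicate 2 (0.0222). Without overexpression replicate 1 or 3 the limma adjusted p was 0.0558 and 0.0556. Without control replicate 1, 2 or 3 it was 0.0833, 0.0999 and 0.101, with no filter on low values 0.158 and without limma's trend 0.125. FSIP1, a neighbour whose annotated exons overlap THBS1 on the opposite strand, was at 0.82 to 1.0 FPKM in overexpressing cells and 0.75 to 1.05 FPKM in control cells.

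THBS2, thrombospondin-2 (ENSG00000186340, chromosome 6), which restrains vessel growth as thrombospondin-1 does but does not activate latent TGF-beta, was at 19.3, 17.5 and 19.85 FPKM in overexpression replicates 1 to 3, against 19.9, 19.2 and 18.1 FPKM in control replicates 1 to 3. The groups overlapped throughout. The difference was -0.02 (SE 0.07), with means of 18.9 ± 1.22 FPKM in overexpressing cells and 19.1 ± 0.924 FPKM in control cells (SD, n = 3 each), and its 95% interval reached from -0.18 to 0.15. THBS3, thrombospondin-3 (ENSG00000169231, chromosome 1), belongs to the pentameric thrombospondins, a subgroup known from cartilage and tendon. It was at 12.75, 11.4 and 11.4 FPKM in overexpression replicates 1 to 3, against 13.7, 15.2 and 14.4 FPKM in control replicates 1 to 3. All 3 overexpression libraries lay below all 3 control libraries, and the difference was -0.26 (SE 0.08), without a call in the fit. Exons of MTX1, at 40.0 to 45.6 FPKM in overexpressing cells and 42.9 to 44.6 FPKM in control cells, overlap THBS3 on the opposite strand. Annotated antisense genes without listed values also overlap exons of THBS1, THBS3, SPARC and CCN2. DEC1, which overlaps TNC on the opposite strand, was at 0.0 to 0.15 FPKM in overexpressing cells and 0.0 to 0.05 FPKM in control cells. No source says whether the counting used strand, so the values of THBS3 and of these other genes are uncertain to that extent.

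The makeup of the thrombospondin transcripts follows from these values. THBS1 made up 82.2%, 81.9% and 81.2% of the summed THBS1, THBS2 and THBS3 FPKM in overexpression replicates 1 to 3, against 73.3%, 73.9% and 76.4% in control replicates 1 to 3. The summed level of the 3 genes was 169 ± 10.3 FPKM in overexpressing cells and 132 ± 5.71 FPKM in control cells (SD, n = 3 each). The ratio of THBS1 to THBS2 within a library was 7.69, 7.50 and 6.79 in overexpression replicates 1 to 3, against 4.63, 5.07 and 5.80 in control replicates 1 to 3. Neither quantity overlapped between the groups, and both rest mainly on THBS1.

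**Figure D2:**
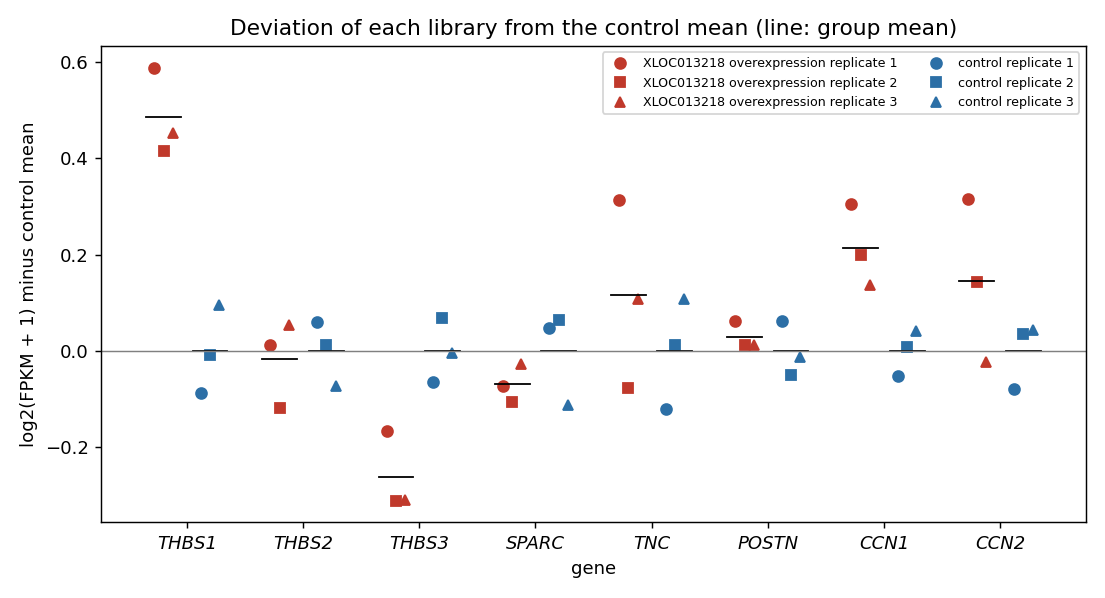
Deviation of each library from the mean of the 3 control libraries, on the log2(FPKM + 1) scale, for the 8 genes; overexpressing cells are left of control cells, symbols mark the replicate number and lines the group means. THBS1 and CCN1 lie above, and THBS3 below, all control values in each of the 3 overexpression libraries, while the other 5 genes overlap.

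CCN1 (ENSG00000142871, chromosome 1), an integrin ligand and immediate early gene, was at 183, 170.2 and 163 FPKM in overexpression replicates 1 to 3, against 143, 149 and 153 FPKM in control replicates 1 to 3. The groups did not overlap, with means of 172 ± 10.3 FPKM in overexpressing cells and 148 ± 4.88 FPKM in control cells (SD, n = 3 each) and a difference of 0.21 (SE 0.05), which was not called. CCN2 (ENSG00000118523, chromosome 6), connective tissue growth factor, was at 247, 219 and 195 FPKM in overexpression replicates 1 to 3, against 188, 203 and 204 FPKM in control replicates 1 to 3. Overexpression replicates 1 and 2 lay above all control libraries and overexpression replicate 3 lay among them. The difference was 0.15 (SE 0.08), and the means were 220.2 ± 25.9 FPKM in overexpressing cells and 198 ± 9.22 FPKM in control cells (SD, n = 3 each). The ratio of CCN2 to CCN1 was 1.28 ± 0.0757 in overexpressing cells and 1.34 ± 0.0248 in control cells (SD, n = 3 each), with overlap. CCN1 and CCN2 thus shared a sign but not a separation of the groups.

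SPARC (ENSG00000113140, chromosome 5), known for shaping collagen deposition and glioma invasion, was at 1439.5, 1407 and 1486 FPKM in overexpression replicates 1 to 3, against 1566, 1583 and 1402 FPKM in control replicates 1 to 3. Control replicate 3 was the lowest of the 6 libraries, so the groups overlapped. The means were 1444 ± 39.8 FPKM in overexpressing cells and 1517 ± 100.01 FPKM in control cells (SD, n = 3 each), a difference of -0.07 (SE 0.06, 95% interval -0.20 to 0.06). TNC (ENSG00000041982, chromosome 9), tenascin-C, a large matrix glycoprotein found around glioblastoma vessels, was at 73.7, 55.96 and 63.8 FPKM in overexpression replicates 1 to 3, against 54.3, 59.6 and 63.75 FPKM in control replicates 1 to 3. Overexpression replicate 1 stood above the other 5 libraries, which were mixed. The means were 64.5 ± 8.90 FPKM in overexpressing cells and 59.2 ± 4.76 FPKM in control cells (SD, n = 3 each), and the difference was 0.12 (SE 0.10, 95% interval -0.10 to 0.33). POSTN (ENSG00000133110, chromosome 13), periostin, a fasciclin-domain protein related to TGFBI, was at 0.21, 0.17 and 0.17 FPKM in overexpression replicates 1 to 3, against 0.21, 0.12 and 0.15 FPKM in control replicates 1 to 3. It was not tested, and at these levels no difference was detectable.

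Of the 7 tested genes, THBS1 passed an adjusted p of 0.05 in limma, as did 0.52% of all tested genes (0.315% higher, 0.205% lower), and 0 were called lower. Values that did not overlap between the groups were found for THBS1 and CCN1 (higher) and for THBS3 (lower), against 18.9% of all tested genes (8.81% higher, 10.1% lower). The median difference of the 7 was 0.12, beside -0.00 over all tested genes. Since the genes were chosen with this comparison known, nothing is read from these counts. Within the set, overexpression replicate 1 held the highest of the 6 values for 5 of the 8 genes, THBS1, TNC, CCN1, CCN2 and, tied with control replicate 1, POSTN. Control replicate 1 held the lowest value for THBS1, TNC, CCN1 and CCN2, and overexpression replicate 2 the lowest for THBS2 and THBS3.

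**Figure D3:**
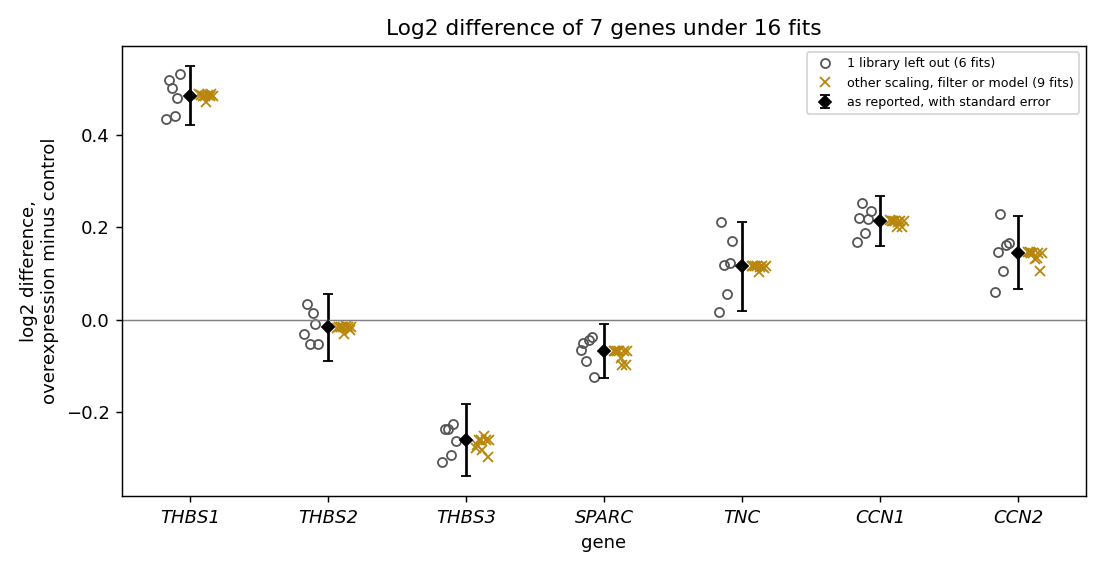
Log2 difference, overexpression minus control, of the 7 tested genes in the fit as reported (diamond, with standard error), with 1 library left out (circles) and under other scalings, filters and models (crosses). THBS1 lies between 0.43 and 0.53, CCN1 between 0.17 and 0.25 and THBS3 between -0.31 and -0.23 throughout, whereas THBS2 falls on both sides of 0.

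Other genes around these proteins were read from 8 lists of 156 genes in all, of which 155 were in the tables and 113 were tested. In limma 5 of the 113 passed an adjusted p of 0.05, 3 higher and 2 lower, where 0.52% of all tested genes did, and 108 did not. At an unadjusted p under 0.05 were 37 of the 113 (32.7%), against 12.7% of all tested genes, a description since the lists were chosen with earlier results known. With 1 library left out 1 to 3 of the 113 passed, and with no filter on low values or without limma's trend 1, TGFBI. TGFBI also passed in all 6 fits with a library left out, at limma adjusted p values between 0.00154 and 0.00753.

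Other members of both families were at low levels. Of THBS4, COMP, CCN3, CCN4, CCN5 and CCN6 only CCN3 reached the filter, at 2.80 ± 0.969 FPKM in overexpressing cells and 2.55 ± 0.967 FPKM in control cells (SD, n = 3 each), a difference of 0.11 (SE 0.24) that did not pass. Among 17 other matricellular and related secreted proteins 5 were tested, 1 was higher, 1 was lower and 3 did not pass, where 0.52% of all tested genes passed. An unadjusted p under 0.05 in limma was found for 3 of the 5 (60.0%, against 12.7% of all tested genes). TGFBI, the fasciclin-domain relative of periostin that TGF-beta induces, was higher at 53.9 ± 0.7499 FPKM in overexpressing cells and 27.7 ± 1.57 FPKM in control cells (SD, n = 3 each), with a difference of 0.94 (SE 0.06, limma adjusted p = 0.000461). FSTL1, a secreted glycoprotein with a SPARC-like domain, was lower at 238, 213 and 222 FPKM in overexpression replicates 1 to 3, against 279, 287 and 294 FPKM in control replicates 1 to 3, a difference of -0.35 (SE 0.05, limma adjusted p = 0.0302). It passed in 1 of the 6 fits with a library left out, without overexpression replicate 1 (limma adjusted p = 0.0497), and reached 0.135 without control replicate 2. SPP1, osteopontin, was at 395 ± 18.0 FPKM in overexpressing cells and 356 ± 7.21 FPKM in control cells (SD, n = 3 each) and did not pass.

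Of 22 receptors and uptake proteins 17 were tested and 0 passed, while 7 (41.2%, against 12.7% of all tested genes) had an unadjusted p under 0.05 in limma. CD36, the receptor through which thrombospondin-1 acts on endothelial cells, was at 0.28 to 0.62 FPKM in overexpressing cells and 0.05 to 0.66 FPKM in control cells. CALR, calreticulin, which binds thrombospondin-1 at the cell surface, was the most abundant of the list, at 935 ± 11.5 FPKM in overexpressing cells and 791 ± 21.7 FPKM in control cells (SD, n = 3 each), a difference of 0.24 (SE 0.04, limma adjusted p = 0.0537). It passed under 4 of 15 alternatives, with limma adjusted p values of 0.036 after rescaling to TPM, 0.0446 with a filter at 5 FPKM, 0.0459 after quantile normalization and 0.0244 with array quality weights, and over all 15 its adjusted p ranged from 0.0244 to 0.235. ITGA3, an integrin chain that pairs with integrin beta-1 and binds thrombospondin-1, was at 259 ± 14.0 FPKM in overexpressing cells and 267 ± 2.55 FPKM in control cells (SD, n = 3 each). None of the tested integrin chains passed in limma. The lowest adjusted p among them was that of ITGB5, which was higher (difference 0.47, SE 0.09, limma adjusted p = 0.0570). The next lowest was that of ITGAV, which was lower (difference -0.22, SE 0.06, limma adjusted p = 0.173).

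Of 24 TGF-beta activation and signalling genes 22 were tested and 0 passed, while 4 (18.2%, against 12.7% of all tested genes) had an unadjusted p under 0.05 in limma, and the list's median difference was 0.08, beside -0.00 over all tested genes. LTBP3, which binds latent TGF-beta, was at 107 ± 7.08 FPKM in overexpressing cells and 113 ± 6.93 FPKM in control cells (SD, n = 3 each). All 21 YAP and TAZ targets outside the 8 genes were tested, with a list median of 0.09. An unadjusted p under 0.05 in limma was found for 8 (38.1%, against 12.7% of all tested genes), in both directions. Of these, NT5E, ANKRD1, AXL and GADD45A were higher in overexpressing cells, and CCDC80, PTPN14, ARHGEF17 and NUAK2 were lower. At the threshold 1 passed, where 0.52% of all tested genes did. It was NT5E, the ectoenzyme CD73, which was higher at 8.76, 11.5 and 10.1 FPKM in overexpression replicates 1 to 3, against 4.59, 4.94 and 6.50 FPKM in control replicates 1 to 3 (difference 0.81, SE 0.13, limma adjusted p = 0.0384). NT5E passed in none of the 6 fits with a library left out, where the limma adjusted p was between 0.0654 and 0.158, and it missed after rescaling to TPM (limma adjusted p = 0.0540). MYOF, a membrane repair protein, was at 131 ± 5.69 FPKM in overexpressing cells and 132 ± 6.36 FPKM in control cells, and AXL, a receptor tyrosine kinase, at 91.7 ± 7.28 FPKM in overexpressing cells and 81.6 ± 0.706 FPKM in control cells (SD, n = 3 each).

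Of 28 serum response factor and immediate early genes 22 were tested and 1 passed, where 0.52% of all tested genes did. An unadjusted p under 0.05 in limma was found for 4 (18.2%, against 12.7% of all tested genes), with a list median of 0.06. FOSL1, an AP-1 subunit, was higher at 46.4, 50.4 and 44.2 FPKM in overexpression replicates 1 to 3, against 34.4, 35.1 and 34.9 FPKM in control replicates 1 to 3 (difference 0.42, SE 0.06, limma adjusted p = 0.0278). It passed without overexpression replicate 2 or 3 and missed the threshold without any other library. Over all fits with 1 library left out, those that passed included, its limma adjusted p ranged from 0.0418 to 0.109. JUN, its partner, was at 122 ± 17.4 FPKM in overexpressing cells and 129 ± 8.69 FPKM in control cells, and MCL1, a survival factor, at 122 ± 1.79 FPKM in overexpressing cells and 119 ± 4.06 FPKM in control cells (SD, n = 3 each).

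Of 23 matrix partners and cross-linkers 17 were tested, 1 was lower and 16 did not pass, where 0.52% of all tested genes passed. An unadjusted p under 0.05 in limma was found for 9 of the 17 (52.9%, against 12.7% of all tested genes). The list median was -0.15. COL6A2, a collagen VI chain, was lower at 86.9, 77.7 and 86.9 FPKM in overexpression replicates 1 to 3, against 109, 112 and 103 FPKM in control replicates 1 to 3 (difference -0.36, SE 0.06, limma adjusted p = 0.0384). It passed in none of the 6 fits with a library left out, where the limma adjusted p was between 0.0727 and 0.181. LOXL2, a lysyl oxidase that cross-links collagen, was at 412 ± 73.2 FPKM in overexpressing cells and 452 ± 33.2 FPKM in control cells, and COL1A2, a collagen I chain, at 326 ± 32.3 FPKM in overexpressing cells and 364 ± 14.4 FPKM in control cells (SD, n = 3 each). Of 16 proteases that cut matricellular proteins 9 were tested and 0 passed, while 2 (22.2%, against 12.7% of all tested genes) had an unadjusted p under 0.05 in limma. CTSB, cathepsin B, was at 196 ± 6.67 FPKM in overexpressing cells and 217 ± 8.85 FPKM in control cells, and CTSL, cathepsin L, at 139 ± 8.44 FPKM in overexpressing cells and 143 ± 10.2 FPKM in control cells (SD, n = 3 each).

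**Figure D4:**
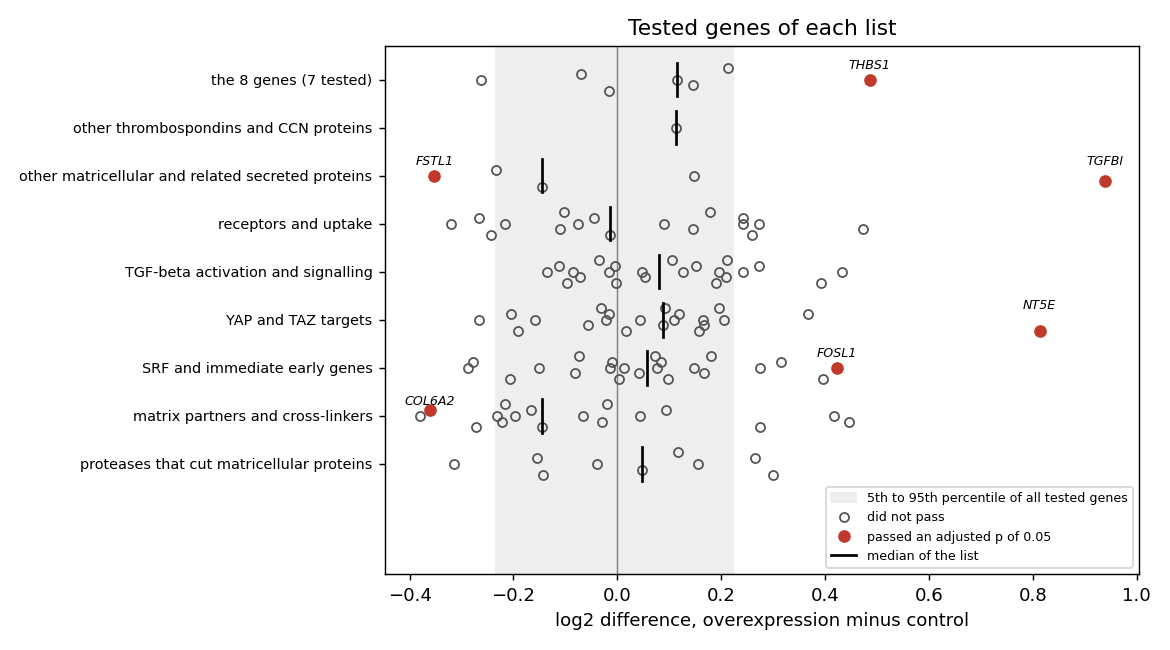
Log2 difference, overexpression minus control, of the tested genes of each list, with filled points for genes past an adjusted p of 0.05 in limma, a bar at each list's median and a grey band from -0.23 to 0.22, the 5th to 95th percentile of all tested genes. Of the genes that passed, THBS1, TGFBI, NT5E and FOSL1 lie to the right of the band and FSTL1 and COL6A2 to its left. Genes that did not pass also lie outside it on both sides, such as ITGB5 at 0.47 and THBS3 at -0.26.

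Among genes with a symbol, those whose levels were most like those of THBS1 over the 6 libraries of both groups, by Pearson correlation of log2(FPKM + 1), were VRK3 (0.99), BAMBI (0.98), KLF6 (0.98), PPAN (0.98) and ITGB5 (0.98), and 1 gene without a symbol ranked among them. VRK3 is a kinase-like protein, BAMBI a decoy receptor of TGF-beta and BMP signalling, KLF6 a zinc finger transcription factor, PPAN a ribosome biogenesis factor and ITGB5 the integrin beta-5 chain. ITGB5 was at 35.6, 30.1 and 33.6 FPKM in overexpression replicates 1 to 3, against 20.9, 24.2 and 25.6 FPKM in control replicates 1 to 3. Of the other genes of the set, CCN1 correlated most with THBS1 (0.96, rank 39 among the tested genes), CCN2 had 0.72 and TNC 0.64. THBS2 had -0.17, SPARC -0.61 and THBS3 -0.78. The 6 libraries form 2 groups, so these values include the difference between the group means, and they are given as a description.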

How the data were processed

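The 6 libraries were grouped from their titles, 3 overexpression and 3 control. The authors deposited 1 table of FPKM values per library, rounded to 2 decimals. Per the labels' protocols the libraries were stranded and poly(A)-selected, whereas the series' design text speaks of cytoplasmic RNA without such selection. Per the submitters' processing notes the build was hg18 and the tools named, without roles, were RSEM 1.3.1, Cufflinks 2.2.1, edgeR, Bowtie and TopHat, so gene coordinates of the files are not printed. In 5 tables the incomplete last line was not read. Symbols matched 19447 of 20330 Ensembl identifiers, and chromosomes and overlapping exons came from GENCODE 29.

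Genes and loci that every table listed were kept where they averaged 1 FPKM or more, and these 11731 were tested on log2(FPKM + 1) with limma 3.58.1 in R 4.3.3 (limma-trend, group as the only term, two-sided, Benjamini-Hochberg adjustment over all of them, threshold 0.05). The code was tested on simulated data. Summaries used Python 3.11.15, pandas 2.3.3 and numpy 2.4.6. From each list the text names up to 4 genes past the threshold with the lowest adjusted p and the 2 with the highest level, and the 5 genes correlating most with THBS1. A gene that this rule also names is not reported here. CD36, GFAP, SLC1A3, SYT1, CD68 and ITGAV were chosen after their values were seen. So were the genes under other observations and the YAP and TAZ targets named by unadjusted p. The 8 genes and the lists were chosen with earlier results of these data known. Alternatives were another pseudocount, filter, scaling, trend or weights, a replicate term, and each library left out.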

Additional observations from a re-analysis of the deposited data

How the results depend on the processing

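Over 15 alternatives the signs of the THBS1, CCN1, CCN2, THBS3, SPARC and TNC differences did not change. The fit as reported called 61 genes, 37 higher and 24 lower. Rescaling to TPM also called 61, 30 higher and 31 lower, of which 50 were among those of the fit as reported. With no filter on low values, and likewise in limma without trend, 1 gene was called over all genes, 1 among the listed genes and 0 among the 8 genes; THBS1 then had limma adjusted p values of 0.158 and 0.125. A filter at a mean of 5 FPKM called 8 listed genes, and array quality weights called 197 genes, 13 of them listed. Leaving out 1 library gave 1 to 60 genes over all, 1 to 3 listed genes and 0 to 1 of the 8 genes, with fewer libraries in each fit. In those fits the difference changed sign for THBS2 (-0.0527 to 0.0339), CCN3 (-0.14 to 0.24), MYOF (-0.0389 to 0.0238), JUN (-0.19 to 0.00193) and CTSL (-0.0871 to 0.0144), none of them called. The causes of these changes were not tested.

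The groups share replicate numbers, and no label states whether same-numbered libraries were prepared together. The deviations of same-numbered libraries from their group means correlated at -0.0398, -0.0576 and 0.0446. These values show no shared deviation over all tested genes, but with 3 libraries per group they cannot decide whether the samples were paired. With the replicate block 19 genes were called over all, 1 listed gene (TGFBI) and 0 of the 8 genes, with THBS1 at a limma adjusted p of 0.0598. POSTN, below the filter on low values, was not tested in the fit as reported, and the depth in reads is unknown.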

Other observations

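Some listed genes that the report does not name had values without overlap between the groups and did not pass the threshold. They were chosen after their values were seen. PMEPA1, a feedback inhibitor induced by TGF-beta, was at 22.7, 19.4 and 18.8 FPKM in overexpression replicates 1 to 3, against 16.2, 14.3 and 13.8 FPKM in control replicates 1 to 3 (limma adjusted p = 0.0879). MMP2, a gelatinase, was at 46.2, 45.7 and 48.5 FPKM in overexpression replicates 1 to 3, against 37.95, 39.99 and 35.7 FPKM in control replicates 1 to 3 (limma adjusted p = 0.0704). CD47, the other main receptor of thrombospondin-1, was at 39.4, 44.0 and 45.4 FPKM in overexpression replicates 1 to 3, against 36.8, 35.2 and 36.2 FPKM in control replicates 1 to 3 (limma adjusted p = 0.157). COL6A1, the partner chain of COL6A2, was at 110.3, 84.7 and 102 FPKM in overexpression replicates 1 to 3, against 128, 128.5 and 129 FPKM in control replicates 1 to 3 (limma adjusted p = 0.101). Of the 113 tested genes of the lists, 26 were higher and 19 lower without overlap, where 18.9% of all tested genes did not overlap.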
